A study of Mus musculus with 6 samples.

Results

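The genes described here encode 6 STAT proteins, the transcription factors that carry signals of cytokine receptors into the nucleus: Stat2, Stat3, Stat4, Stat5a, Stat5b and Stat6. They were taken as the features of a gene array whose symbol in the array's annotation is exactly 1 of these names. The rule found 6 features, 1 for each gene, among 34760 features in all, of which those with a single symbol name 19937 genes. No feature names a STAT of this list together with another gene. All 6 lay above the filter on low values and were tested.

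The 6 arrays measured total RNA of embryonic stem cells (ESCs) from C57Bl/6 mice. All of them, controls included, carried the stably expressed chimeric receptor GRgp-Y118F. Such a receptor joins the outside of the receptor for GCSF, granulocyte colony-stimulating factor, to the inner, signalling part of gp130, and its Y118F change removes the gp130 tyrosine that couples to the phosphatase SHP2 and to ERK. There were 2 arrays labelled LIF/PD, from cells given leukaemia inhibitory factor (LIF) with 1 uM PD0325901, an inhibitor of the ERK-activating kinase MEK, 2 arrays labelled GCSF, and 2 arrays of untreated controls. Treated cells had no serum for 6 h, and the treatment lasted 1 h, per the labels. No source used here says if serum was withheld from the controls too, so treatment and serum withdrawal cannot be told apart against them. The labels name 1 engineered line and do not say whether it was 1 clone, or whether replicate arrays stem from different cultures.

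Cytokines bind receptors that hold JAK kinases, which phosphorylate a STAT on a tyrosine near its tail, and the STAT then pairs with another and binds DNA. STAT3 acts below gp130 and LIF, and in mouse ESCs its activity sustains self-renewal. STAT2 pairs with the interferon regulatory factor IRF9 and acts below interferon receptors. STAT4 acts below the interleukin 12 receptor, STAT5A and STAT5B below receptors of growth hormone, prolactin and erythropoietin, and STAT6 below the interleukin 4 receptor. Because STATs are switched on by phosphorylation, transcript levels on an array show how much mRNA of each there was, not how active the protein was. In RNA of whole cultures, fewer cells of a type and less RNA per cell cannot be told apart.

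Transcripts of the ERK pathway bear on the labels. The ERK phosphatase gene Dusp6 had 10.51 and 10.54 log2 intensity in the arrays labelled LIF/PD, 8.93 and 8.94 in those labelled GCSF, and 10.47 and 10.52 in control arrays. The ERK inhibitor gene Spry4 had 10.12 and 9.98 in LIF/PD arrays, 8.12 and 8.22 in GCSF arrays, and 9.97 and 10.04 in control arrays. Of 14 ERK feedback genes, 0 were called against control in the arrays labelled LIF/PD by limma, and 7 fell in those labelled GCSF. Of all tested features 0.065% were called in the former, and 0.367% were called lower in the latter. At an unadjusted p under 0.05 there were 2 in LIF/PD arrays, Spry2 with 0.32 ± 0.06 and Egr1 with -0.18 ± 0.08, beside 6.59% of all features. By the labels the MEK inhibitor was given with LIF, while the 7 falls were in the arrays labelled GCSF. Whether this comes from the treatments or from an exchange of labels was not tested. The groups are kept as labelled, and each direction below refers to arrays by their label.

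The 10 ESC markers were all above the filter, with a mean over the list of 11.73 to 11.75 log2 in LIF/PD arrays, 11.77 in both GCSF arrays and 11.69 to 11.71 in control arrays. Among them Tdgf1 and Sall4 rose in GCSF arrays against control, and in LIF/PD against GCSF arrays Utf1 was higher and Tdgf1 lower. Of all tested features 0.804% were called higher and 0.367% lower in the former comparison, and 0.402% and 0.443% in the latter. In LIF/PD against control 0 of the 10 were called by limma, beside 0.065% of all tested features. At an unadjusted p under 0.05 there were 4 of the 10 in that comparison, beside 6.59%. Over the 18 alternatives 1 to 3 markers were called in GCSF against control and 0 to 2 in LIF/PD against GCSF. Of 10 fibroblast markers 9 were above the filter (all but Lum), with list means of 9.34 to 9.36, 9.33 to 9.34 and 9.33 to 9.34 in LIF/PD, GCSF and control arrays. Col3a1 of that list rose by 0.29 ± 0.05 in GCSF arrays, a call that 12 of 18 alternatives did not make. Of 9 measured blood cell markers 7 were above the filter, and their list means were 7.90 to 7.92, 7.79 to 7.87 and 7.88 to 7.93 in the same order. Of these 7, 0 were called in any comparison by limma. At an unadjusted p under 0.05 there were 2 in LIF/PD against GCSF, 1 in LIF/PD against control and 0 in GCSF against control, beside 11.8%, 6.59% and 12.1% of all tested features. An array gives no true zero, so no marker was at 0. The part of these markers in the STAT results was not tested. Csf3r, the gene of the GCSF receptor itself, lay below the filter, with 5.82 and 5.72 in LIF/PD arrays, 5.96 and 5.83 in GCSF arrays and 5.79 and 5.96 in control arrays. The array feature need not cover the part of that gene that the chimera carries.

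Stat3 and Stat2 were the STAT genes that changed, and both were highest in the arrays labelled GCSF. Stat3 rose 1.53-fold and Stat2 1.32-fold against control there, and both were lower in the arrays labelled LIF/PD than in those labelled GCSF. Stat4, Stat5a, Stat5b and Stat6 did not pass in any of the 3 comparisons.

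**Figure D1:**
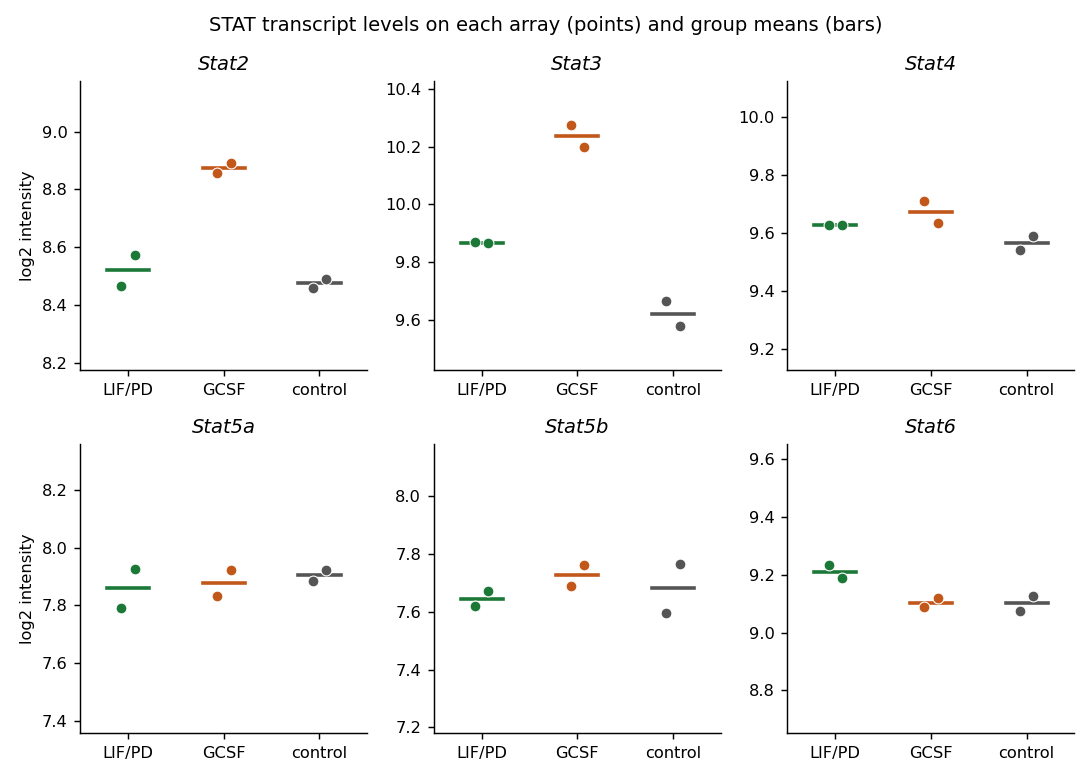
Log2 intensity of the 6 STAT genes on each array (points) with group means (bars), for arrays labelled LIF/PD, GCSF and control. Each panel spans 1 log2 unit around its own gene, and levels of different genes are not comparable. Stat3 forms 3 separate levels, Stat2 is high in the GCSF arrays, and in the other 4 genes the groups lie close together (Stat4 between 9.54 and 9.71 on all arrays).

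Stat3, the transcription factor that gp130 activates, formed 3 separate levels. It had 9.87 and 9.87 log2 in the arrays labelled LIF/PD, 10.27 and 10.20 in those labelled GCSF, and 9.67 and 9.58 in control arrays. The GCSF arrays were highest, the LIF/PD arrays lay between, and no group overlapped another. Against control, Stat3 rose in GCSF arrays by 0.61 ± 0.05 log2 (SE, n = 2 arrays per group, limma with Benjamini-Hochberg adjustment, adjusted p = 0.000428), with a 95% interval of 1.42-fold to 1.65-fold. In LIF/PD arrays it differed from control by 0.24 ± 0.05, which did not pass (unadjusted p = 0.000671, adjusted p = 0.258), with an interval of 1.10-fold to 1.28-fold. The direct comparison passed: Stat3 was lower in LIF/PD than in GCSF arrays by -0.37 ± 0.05 (adjusted p = 0.0118). That call ended without GCSF replicate 1 (adjusted p = 0.0733), without LIF/PD replicate 1 (0.110) or without LIF/PD replicate 2 (0.110), while the rise in GCSF arrays passed whichever array was left out.

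These values can be set against the whole array. In GCSF arrays 59 of the 16912 tested features differed from control by more than Stat3 did in either direction, and in LIF/PD arrays 269 did. In LIF/PD against GCSF arrays 2 of the 6 STAT genes were called lower and 0 higher, while of all tested features 0.443% were called lower and 0.402% higher (0.846% in either direction). In LIF/PD against control 0 of 6 were called, while 0.0591% of all features were called higher and 0.00591% lower (0.065% in either direction). At an unadjusted p under 0.05 there were 2 of 6 in that comparison, beside 6.59% of all features. In GCSF against control 2 of 6 were called higher and 0 lower, while 0.804% of all features were called higher and 0.367% lower (1.17% in either direction). The median over the 6 STAT genes was -0.06 in LIF/PD against GCSF, 0.05 in LIF/PD against control and 0.08 in GCSF against control, beside 0.00, 0.01 and 0.01 over all tested features. Groups of 2 arrays often separate: the arrays did not overlap for 41.5%, 38.4% and 41.8% of all tested features in these comparisons, and for 5, 3 and 3 of the 6 STAT genes.

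The promoter of Stat3 is shown because the gene changed and because STAT proteins bind a palindrome, TTCNNNGAA, that can be looked for. RefSeq promoters (GRCm38.p6, from 250 bases before to 50 bases from the start) were available for all 6 STAT genes, with 2 starts each for Stat4, Stat5a and Stat5b. Motifs were sought on both strands, and matches would stand in capitals. The Stat3 promoter lies at chr11:100939491-100939790 on the minus strand.
Stat3: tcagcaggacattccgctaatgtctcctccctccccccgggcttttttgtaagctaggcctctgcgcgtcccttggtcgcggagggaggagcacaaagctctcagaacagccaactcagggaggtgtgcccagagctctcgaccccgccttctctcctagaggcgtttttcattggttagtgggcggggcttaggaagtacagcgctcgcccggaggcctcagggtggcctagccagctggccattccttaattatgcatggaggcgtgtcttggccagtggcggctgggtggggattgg
TTCNNNGAA was found in 0 of the 9 promoters of the 6 STAT genes, Stat3 included, and in 8.3% of all 32851 promoters. Of 23 genes of the STAT3 target list described below that have a promoter in the table, 4 held it: Socs3, Icam1, Irf1 and Sbno2. That is 17.4% of these genes, beside 9.55% of all 27025 genes with a promoter. In Socs3 (chromosome 11) they lie at positions -154 to -146 from the start, and in Irf1 (chromosome 11) at -90 to -82, shown here with 15 bases on either side and the match in capitals.
Socs3: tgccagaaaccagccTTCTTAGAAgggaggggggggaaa
Irf1: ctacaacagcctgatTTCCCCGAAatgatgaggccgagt
A match is a description of the sequence, and its absence in Stat3 says only that these letters are not in this window.

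Stat2, the partner of IRF9, was high in the GCSF arrays and near control in the LIF/PD arrays. It had 8.47 and 8.57 log2 in the arrays labelled LIF/PD, 8.86 and 8.89 in those labelled GCSF, and 8.46 and 8.49 in control arrays. The LIF/PD and control arrays overlapped, and both GCSF arrays lay above all 4 others. Stat2 rose in GCSF arrays against control by 0.40 ± 0.06 (adjusted p = 0.0127), with an interval of 1.21-fold to 1.44-fold. In LIF/PD arrays it differed from control by 0.05 ± 0.06 (adjusted p = 0.928, interval 0.944-fold to 1.13-fold). LIF/PD arrays were lower than GCSF arrays by -0.35 ± 0.06 (adjusted p = 0.0319).

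Leaving out a single array ended the Stat2 calls, except that the rise in GCSF arrays passed without either LIF/PD replicate. That rise had an adjusted p of 0.127 and 0.0784 without control replicates 1 and 2, and 0.0678 and 0.0655 without GCSF replicates 1 and 2. The difference between LIF/PD and GCSF arrays had adjusted p values of 0.0724 to 0.235 when any array was left out, with values between -0.41 and -0.30. The median of the array's control features was 6.84 in GCSF replicate 1, against 6.58 to 6.71 in the other 5 arrays. With that median as a covariate the rise of Stat2 in GCSF arrays was 0.38 (adjusted p = 0.119) and that of Stat3 0.60 (adjusted p = 0.00647). The Stat2 difference between LIF/PD and GCSF arrays was then -0.32 (adjusted p = 0.515) and that of Stat3 -0.35 (adjusted p = 0.279). The standard error of this Stat2 difference was 0.09 with the covariate, against 0.06 in the main fit. The medians differ between the groups, with 6.58 and 6.68 in LIF/PD arrays and 6.84 and 6.71 in GCSF arrays. The covariate and the group difference thus cannot be fully told apart.

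**Figure D2:**
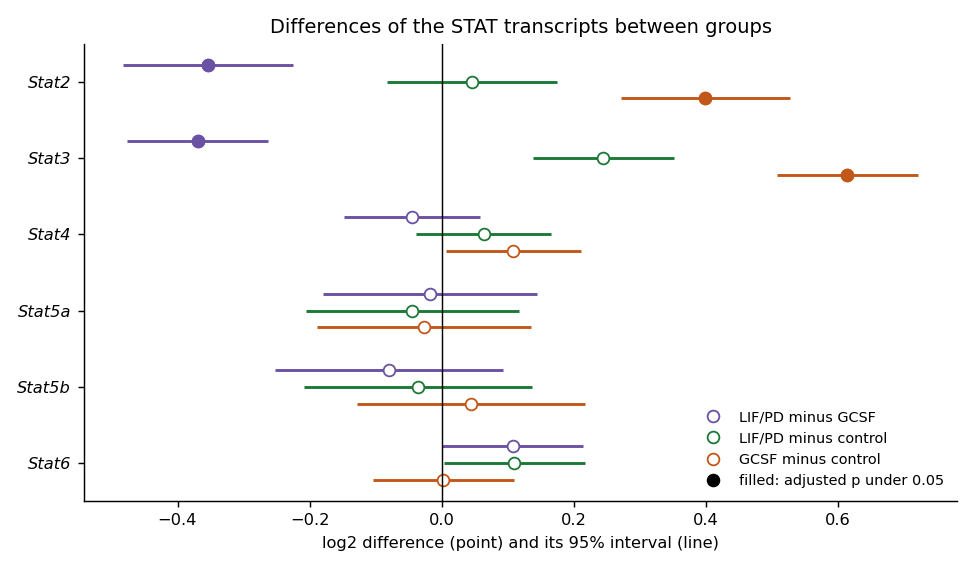
Log2 differences (points) and 95% intervals (lines) of the 6 STAT genes for LIF/PD minus GCSF, LIF/PD minus control and GCSF minus control. Filled points passed an adjusted p under 0.05: those of Stat3 (0.61) and Stat2 (0.40) in GCSF minus control, and of Stat3 (-0.37) and Stat2 (-0.35) in LIF/PD minus GCSF.

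The Stat2 promoter is shown for its letters of the interferon-stimulated response element, GAAA and GAAA with 2 bases of any kind between them, which the complex of STAT2 and IRF9 is known to bind. It lies at chr10:128270248-128270547 on the plus strand, and capitals mark motif matches.
Stat2: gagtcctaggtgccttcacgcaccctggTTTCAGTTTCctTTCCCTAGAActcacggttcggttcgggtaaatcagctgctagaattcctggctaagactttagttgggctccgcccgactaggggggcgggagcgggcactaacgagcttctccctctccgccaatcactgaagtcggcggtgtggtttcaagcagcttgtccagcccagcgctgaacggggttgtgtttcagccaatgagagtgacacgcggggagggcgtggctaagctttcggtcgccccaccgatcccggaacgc
The first match, TTTCAGTTTC, is this response element read on the other strand and lies at positions -222 to -213 from the start. The second, TTCCCTAGAA, has TTC and GAA at the wider spacing that STAT6 prefers, with 4 bases between them, and lies at -210 to -201, so the matches do not overlap. The response element was found in 3.44% of all 32851 promoters and the wider palindrome in 6.95%. Of the 9 STAT promoters 2 held the response element, that of Stat2 and that of the second start of Stat4 (chromosome 1), and 1 held the wider palindrome. The stretches around the match in Stat4, and in the interferon-induced gene Ifit1 (chromosome 19), are given for comparison.
Stat4: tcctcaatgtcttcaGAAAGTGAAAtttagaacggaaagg
Ifit1: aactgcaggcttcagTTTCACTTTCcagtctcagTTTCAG
The Ifit1 promoter holds a second match close behind the first, in part visible as the capitals at the end of its stretch.

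Stat4, the STAT of interleukin 12 signalling, differed little between groups. It had 9.63 and 9.63 log2 in LIF/PD arrays, 9.71 and 9.64 in GCSF arrays, and 9.54 and 9.59 in control arrays. Both treated groups lay above control without overlap. The difference from control was 0.11 ± 0.04 in GCSF arrays (unadjusted p = 0.0405, adjusted p = 0.387) and 0.06 ± 0.04 in LIF/PD arrays (adjusted p = 0.836). LIF/PD differed from GCSF arrays by -0.05 ± 0.04 (adjusted p = 0.762). The 95% interval in GCSF arrays ran from 1.00-fold to 1.16-fold.

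Stat6, the STAT of interleukin 4 signalling, was the one member whose group mean was highest in the LIF/PD arrays. It had 9.23 and 9.19 log2 in LIF/PD arrays, 9.09 and 9.12 in GCSF arrays, and 9.07 and 9.13 in control arrays. The GCSF and control arrays overlapped and the LIF/PD arrays lay above both. LIF/PD arrays differed from GCSF arrays by 0.11 ± 0.05 (unadjusted p = 0.0496, adjusted p = 0.423) and from control by 0.11 ± 0.05 (unadjusted p = 0.0455, adjusted p = 0.751), and neither passed. GCSF arrays differed from control by 0.00 ± 0.05.

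Stat5a and Stat5b, closely related STATs of growth hormone and prolactin signalling, had the least precise values of the 6. Stat5a had 7.79 and 7.93 log2 in LIF/PD arrays, 7.83 and 7.92 in GCSF arrays, and 7.88 and 7.92 in control arrays. Stat5b had 7.62 and 7.67 in LIF/PD arrays, 7.69 and 7.76 in GCSF arrays, and 7.60 and 7.76 in control arrays. For both genes the treated arrays overlapped the controls. The pair of control arrays differed by 0.17 log2 for Stat5b, the widest gap within a group for any of the 6 genes.

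For Stat5a the difference from control was -0.04 ± 0.07 in LIF/PD arrays (interval 0.867-fold to 1.08-fold) and -0.03 ± 0.07 in GCSF arrays (interval 0.878-fold to 1.10-fold). For Stat5b it was -0.04 ± 0.08 in LIF/PD arrays (interval 0.866-fold to 1.10-fold) and 0.05 ± 0.08 in GCSF arrays (interval 0.915-fold to 1.16-fold). LIF/PD differed from GCSF arrays by -0.02 ± 0.07 for Stat5a and by -0.08 ± 0.08 for Stat5b. Adjusted p lay between 0.745 and 0.963 for these 6 differences. The files do not give the probe sequences, so whether the features of these related genes share signal was not tested.

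Stat3, Stat5a and Stat5b stand side by side on chromosome 11, and Stat2 and Stat6 lie on chromosome 10. The nearest protein-coding genes in RefSeq (GRCm38.p6), up to 2 on each side of each STAT gene, were compared with them. Of 16 such neighbours 13 were measured and 11 tested, and 0 passed in any comparison by limma (at an unadjusted p under 0.05 there were 2, Il23a and Nemp1, in LIF/PD against GCSF, 0 in LIF/PD against control and 1, Nemp1, in GCSF against control, beside 11.8%, 6.59% and 12.1% of all tested features). Their differences ran from -0.11 to 0.18 in LIF/PD against GCSF, from -0.06 to 0.14 in LIF/PD against control and from -0.09 to 0.15 in GCSF against control. Next to Stat3, the caveola gene Cavin1 differed by 0.09 ± 0.05, 0.08 ± 0.05 and -0.01 ± 0.05 in these comparisons, and the proton pump gene Atp6v0a1 by -0.04 ± 0.04, -0.05 ± 0.04 and -0.01 ± 0.04. Next to Stat2, the cytokine gene Il23a differed by 0.18 ± 0.08, 0.11 ± 0.08 and -0.06 ± 0.08. The gene of Stat6 overlaps that of Nab2, a corepressor of EGR factors, which differed by 0.04 ± 0.05, -0.05 ± 0.05 and -0.09 ± 0.05. The gene of Stat2 overlaps that of Apof, which lay below the filter, with -0.08 ± 0.10 in GCSF against control. Where gene spans overlap, the sources used here do not say if the features tell the strands apart, so these values are uncertain.

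**Figure D3:**
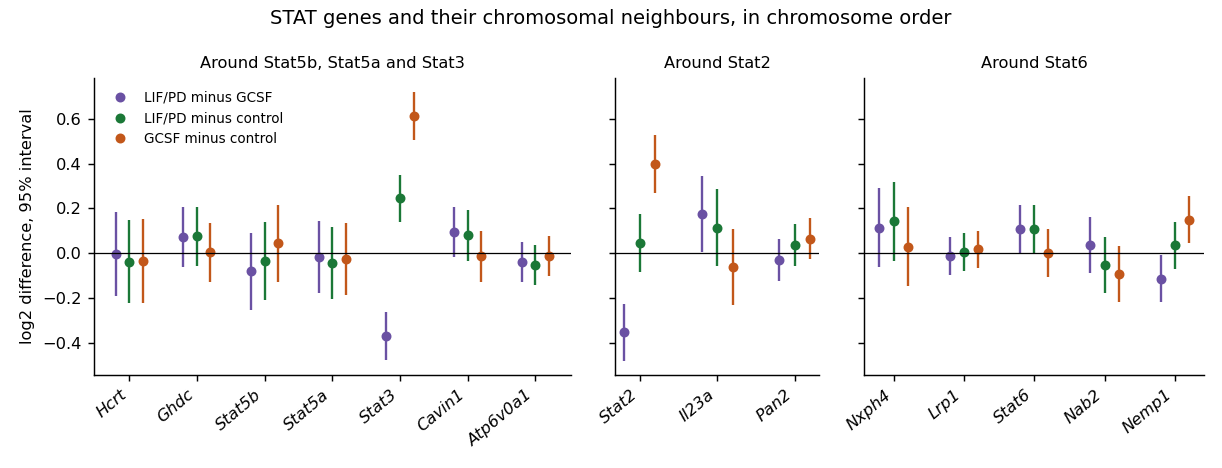
Log2 differences (points) and 95% intervals (lines) of Stat2, Stat3, Stat5a, Stat5b and Stat6 and their tested protein-coding neighbours, in chromosome order, for LIF/PD minus GCSF, LIF/PD minus control and GCSF minus control. Stat3 (0.61 in GCSF minus control) stands beside Stat5a (-0.03) and Cavin1 (-0.01), and Stat2 (0.40) beside Il23a (-0.06).

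The genes above the STATs in the pathway were described from a list of 25 cytokine receptor and JAK genes, of which 20 were measured and 18 tested. In GCSF arrays against control 2 rose and 0 fell, beside 0.804% and 0.367% of all tested features. The oncostatin M receptor gene Osmr rose by 0.52 ± 0.06 (adjusted p = 0.00309) and the LIF receptor gene Lifr by 0.35 ± 0.06 (adjusted p = 0.0234). Both genes also stand in the list of STAT3 targets described below, so these calls are counted there again. Osmr had 8.78 and 8.74 log2 in LIF/PD arrays, 9.05 and 9.02 in GCSF arrays, and 8.45 and 8.58 in control arrays, so like Stat3 it formed 3 levels. In 5 of the 18 alternatives 1 gene of the list was called in place of 2, among them those without control replicate 1, control replicate 2 or GCSF replicate 1. Il6st, which encodes gp130, differed by 0.12 ± 0.04 in GCSF arrays against control and did not pass. The kinase genes Jak1 (0.07 ± 0.04), Jak2 (0.14 ± 0.08) and Tyk2 (-0.03 ± 0.06) did not pass there either. No gene of the list passed by limma in LIF/PD against control or in LIF/PD against GCSF. At an unadjusted p under 0.05 there were 3 and 5, beside 6.59% and 11.8% of all tested features. The list medians were 0.00 in LIF/PD against GCSF, 0.05 in LIF/PD against control and 0.06 in GCSF against control.

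Of 17 inhibitors of the pathway, all of them tested, 1 passed in each of the 3 comparisons, Socs3, which also stands in the list of STAT3 targets. Of all tested features 0.846% were called in LIF/PD against GCSF, 0.065% in LIF/PD against control and 1.17% in GCSF against control. At an unadjusted p under 0.05 by limma there were 3, 3 and 6 of the 17, beside 11.8%, 6.59% and 12.1% of all tested features. Socs3, which binds gp130 and JAKs and shuts the signal off, had 10.42 and 10.32 log2 in LIF/PD arrays, 10.79 and 10.98 in GCSF arrays, and 7.77 and 7.73 in control arrays. It rose by 2.62 ± 0.07 in LIF/PD arrays and by 3.13 ± 0.07 in GCSF arrays. It was lower in LIF/PD than in GCSF arrays by -0.51 ± 0.07 (adjusted p = 0.0123), a call that ended without either LIF/PD replicate. Its second feature differed by 0.39 and 0.51 from control in LIF/PD and GCSF arrays. Cish, an inhibitor that STAT5 is known to induce, had 6.85 and 7.12 in LIF/PD arrays, 7.29 and 7.47 in GCSF arrays, and 6.87 and 7.01 in control arrays. Its difference from control of 0.44 ± 0.11 in GCSF arrays did not pass (adjusted p = 0.140). Socs1 (0.05 ± 0.09) and Socs2 (0.15 ± 0.04) did not pass in GCSF arrays, and the medians of the list in the order used above were -0.03, 0.01 and 0.04.

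Of 28 genes known as STAT3 targets 25 were tested. In GCSF arrays against control 13 rose and Myc fell, in LIF/PD arrays against control 7 rose and 0 fell, and in LIF/PD against GCSF arrays 6 were lower and Myc was higher. Of all tested features 0.804% were called higher and 0.367% lower in the first comparison, and 0.0591% and 0.00591% in the second. In LIF/PD against GCSF 0.443% of them were called lower and 0.402% higher. The medians of the list were -0.12 in LIF/PD against GCSF, 0.13 in LIF/PD against control and 0.35 in GCSF against control. The rises against control in LIF/PD arrays numbered 1 without either control replicate and 1 without either LIF/PD replicate, whereas 12 to 14 genes were called in GCSF arrays whichever array was left out. The 6 genes that were lower in LIF/PD than in GCSF arrays were Socs3, the nuclear IkB gene Bcl3 (-0.80 ± 0.05), the pluripotency factor gene Klf4 (-0.62 ± 0.06), the adhesion molecule gene Icam1 (-0.45 ± 0.07), Sbno2 (-0.41 ± 0.06) and the stress gene Gadd45g (-0.41 ± 0.05). The number of calls in this comparison, 7 with Myc, was 4 without GCSF replicate 1 and 2 without either LIF/PD replicate.

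The kinase gene Pim3 and the pluripotency factor gene Klf5 rose against control under both labels. Pim3 had 9.71 and 9.74 log2 in LIF/PD arrays, 9.93 and 9.89 in GCSF arrays, and 9.17 and 9.25 in control arrays. Klf5 had 10.83 and 10.80 in LIF/PD arrays, 10.97 and 10.92 in GCSF arrays, and 10.38 and 10.38 in control arrays. For both, the LIF/PD arrays lay below the GCSF arrays without overlap, by -0.18 ± 0.05 (adjusted p = 0.146) and -0.13 ± 0.04 (adjusted p = 0.188), and neither difference passed. The arrays labelled LIF/PD and GCSF overlapped for 4 of the 25 tested targets, Junb, Gbx2, Cebpb and Hif1a, of which the first pair rose against control under both labels. Over all tested features, the arrays of these groups did not overlap for 41.5%. The AP-1 gene Junb had 7.68 and 7.73 log2 in LIF/PD arrays, 7.67 and 7.75 in GCSF arrays, and 7.17 and 7.07 in control arrays. The homeobox gene Gbx2 had 8.75 and 8.75 in LIF/PD arrays, 8.61 and 8.87 in GCSF arrays, and 8.05 and 8.10 in control arrays. LIF/PD differed from GCSF arrays by -0.0048 ± 0.07 for Junb (95% interval -0.17 to 0.16) and by 0.01 ± 0.08 for Gbx2 (-0.17 to 0.20). Both comparisons with control use the same 2 control arrays, so differences from control under both labels share them.

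The pattern of Stat3 over the 6 arrays was set against the 161 other features with 1 symbol that were called in GCSF arrays against control. Among the most alike were those of Klf4 (Pearson r = 0.996), the Nodal co-receptor gene Tdgf1 (0.996), the hyaluronan synthase gene Has2 (0.994) and the transporter gene Slc35f2 (0.994). Klf4 had 9.44 and 9.45 log2 in LIF/PD arrays, 10.14 and 9.97 in GCSF arrays, and 9.19 and 9.09 in control arrays. Has2 had 8.62 and 8.67 in LIF/PD arrays, 9.10 and 9.03 in GCSF arrays, and 8.49 and 8.41 in control arrays. These correlations describe 6 points in 3 groups, and the features were preselected for a difference between GCSF and control arrays, so the values are a description.

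Stat2 belongs to the interferon pathway, for which 27 target genes were listed, 24 measured and 17 tested. In GCSF arrays against control 4 rose and 0 fell, beside 0.804% and 0.367% of all tested features, and the median was 0.13. Of these 4, Irf1 also stands in the list of STAT3 targets, and Irf9 in the list of partners described below. Irf9, the DNA-binding partner of STAT2, had 8.52 and 8.47 log2 in LIF/PD arrays, 8.77 and 8.81 in GCSF arrays, and 8.30 and 8.24 in control arrays. It rose by 0.52 ± 0.05 in GCSF arrays (adjusted p = 0.00220), and in LIF/PD arrays it differed from control by 0.22 ± 0.05 (adjusted p = 0.480). Unlike Stat2, Irf9 had LIF/PD arrays above both controls. Its difference between LIF/PD and GCSF arrays was -0.30 ± 0.05 (adjusted p = 0.0526).

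Usp18, which binds STAT2 and damps interferon signalling, was likewise high in the GCSF arrays, with LIF/PD arrays at the control level. It had 7.86 and 7.93 log2 in LIF/PD arrays, 8.35 and 8.26 in GCSF arrays, and 7.98 and 7.93 in control arrays. It rose by 0.35 ± 0.06 in GCSF arrays (adjusted p = 0.0449) and was lower in LIF/PD than in GCSF arrays by -0.41 ± 0.06 (adjusted p = 0.0287). Ifit1, an antiviral gene, rose by 0.64 ± 0.12 in GCSF arrays (adjusted p = 0.0449), with 7.80 and 7.49 in LIF/PD arrays, 8.23 and 8.08 in GCSF arrays, and 7.62 and 7.41 in control arrays. The regulator gene Irf1 rose by 0.43 ± 0.05 in GCSF arrays (adjusted p = 0.00545), and its second feature differed by 0.12. The other 13 tested genes of the list did not pass, among them Oas1a (0.21 ± 0.12), Ifit3 (0.28 ± 0.12) and Cxcl10 (0.15 ± 0.08).

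The interferon calls in GCSF arrays numbered 1 to 4 over the 18 alternatives, and 2 or fewer in 10 of them. Among these, they numbered 2 without control replicate 1, 1 without control replicate 2, 2 without either GCSF replicate, and 2 with quantile normalization or median centring of the arrays. No interferon gene passed in LIF/PD against control (2 at an unadjusted p under 0.05, by limma, beside 6.59% of all tested features). The call of Usp18 between LIF/PD and GCSF arrays was lost without any one array. Most like Stat2 among the features called in GCSF against control were the noncoding RNA Rian (r = 0.995), the microRNA gene Mir341 (0.993) and the splicing factor gene Rbm25 (0.988). Among the 107 others called in LIF/PD against GCSF they were Rian, Mir341 and the laminin gene Lama1 (0.984). As for Stat3, these features were preselected for a difference that Stat2 also has, over 6 points in 3 groups, so the correlations are a description.

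**Figure D4:**
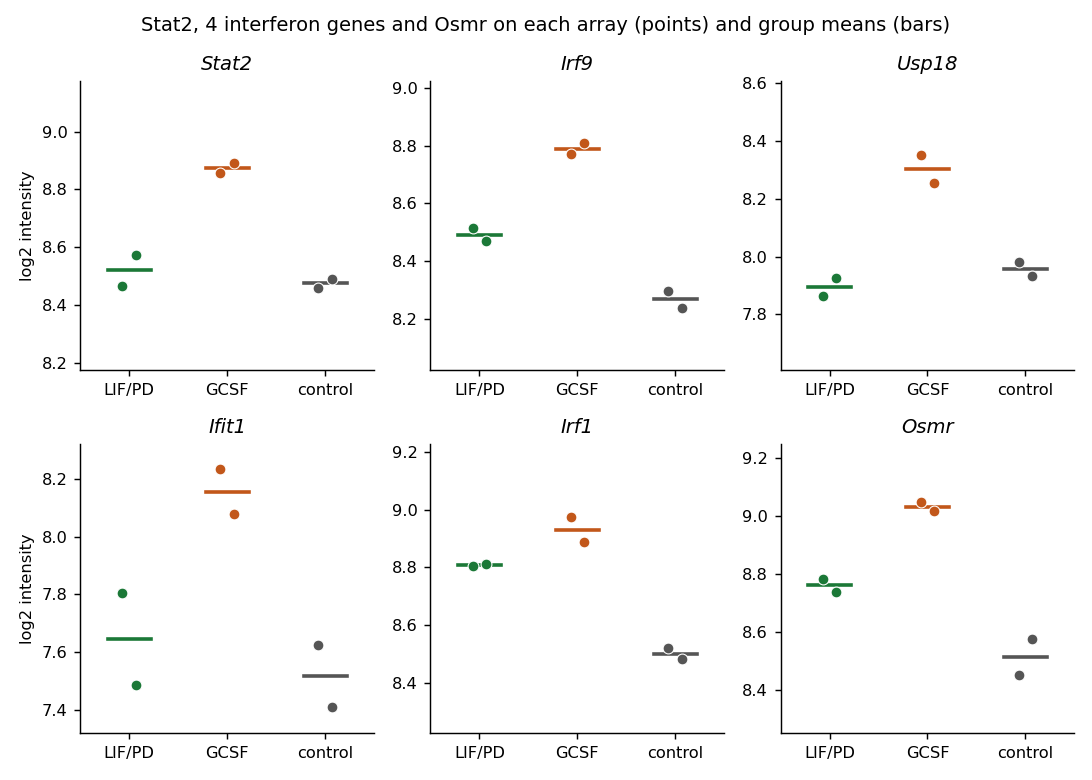
Log2 intensity of Stat2, of the interferon genes Irf9, Usp18, Ifit1 and Irf1, and of the receptor gene Osmr on each array (points) with group means (bars), for arrays labelled LIF/PD, GCSF and control. Each panel spans 1 log2 unit. In Stat2 and Usp18 the LIF/PD arrays lie at the control level (7.86 and 7.93 for Usp18, against 7.98 and 7.93 in control arrays), while in Irf9, Irf1 and Osmr they lie between GCSF and control arrays.

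Of 12 genes listed as STAT5 targets 10 were tested, and Myc, which also stands in the STAT3 list, was the one that passed. Myc fell by 0.77 ± 0.04 in GCSF arrays against control and was higher by 0.86 ± 0.04 in LIF/PD than in GCSF arrays. Of all tested features 0.367% were called lower in the former comparison and 0.402% higher in the latter. At an unadjusted p under 0.05 by limma there were 4 of the 10 in LIF/PD against GCSF, 2 in LIF/PD against control and 5 in GCSF against control. The shares of all tested features were 11.8%, 6.59% and 12.1%. The medians of the STAT5 list were 0.08 in LIF/PD against GCSF, 0.08 in LIF/PD against control and -0.03 in GCSF against control. Of 15 genes listed as targets of STAT4 and STAT6 5 were tested, and 0 passed in any comparison by limma. At an unadjusted p under 0.05 there were 1, 0 and 1, beside 11.8%, 6.59% and 12.1% of all tested features. The interleukin 4 receptor gene Il4ra, which STAT6 is known to induce, differed from control by 0.27 ± 0.06 in GCSF arrays (adjusted p = 0.0777). Of 8 partners and coactivators of STATs Irf9 alone passed, in GCSF arrays against control, where 0.804% of all tested features were called higher. The acetyltransferase genes Crebbp (0.02 ± 0.03) and Ep300 (-0.04 ± 0.04) did not pass there. At an unadjusted p under 0.05 there was 1 of the 8 in each comparison by limma.

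**Figure D5:**
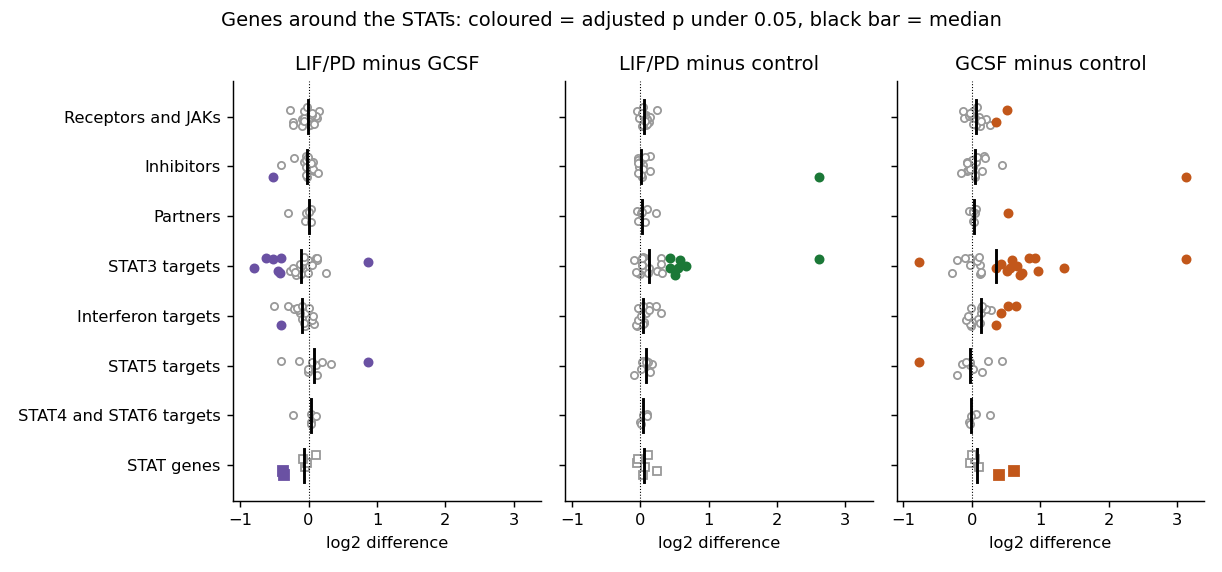
Log2 differences of the tested genes of 7 lists around the STATs (circles) and of the 6 STAT genes (squares), for LIF/PD minus GCSF, LIF/PD minus control and GCSF minus control. Coloured symbols passed an adjusted p under 0.05, black bars are medians, and the isolated point to the right is Socs3 (2.62 in LIF/PD and 3.13 in GCSF arrays against control). STAT3 targets hold most of the coloured points, with 13 rises in GCSF minus control. A gene of several lists is drawn in each, among the coloured ones Socs3, Osmr, Lifr, Irf1, Irf9 and Myc.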

How the data were processed

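RNA of 2 arrays in each of 3 groups was compared. The deposited table holds values between 2.29 and 14.5 that were read as log2 intensity from their range. No source used here states how the authors corrected, summarized and normalized them. Values were used as deposited. The 6573 features below the first annotated identifier were taken as a control block and left out, and those whose mean reached the 40th percentile, 6.7, were tested (16912 of 28187). Group means were fitted over all 6 arrays together with limma 3.58.1 in R 4.3.3, with an intensity trend in the variances and 3 residual degrees of freedom (8.4 with the prior). Two-sided p-values were adjusted by Benjamini-Hochberg over all tested features, a call is an adjusted p under 0.05, and errors are this fit's standard errors. The p-values measure only how far these arrays differ, which may be technical, and arrays have no read depth, so their number limits the precision. Between arrays the Pearson correlation was 0.997 to 0.998 within and 0.995 to 0.998 across groups, and a pair of arrays shared 1 to 7 exactly equal values.

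The STAT genes, the lists and the tests were chosen with earlier results of these data known. Symbols came from the platform's annotation, updated through gene identifiers to RefSeq (GRCm38.p6), and a gene with several features is given by the one with the highest mean. Named were all STAT genes, up to 6 called members per list and comparison, 16 fixed genes, up to 2 neighbours on each side, the 5 features most like Stat3, of which 1 is not reported here, and the 3 most like Stat2. Alternatives, 12 settings and 6 left-out arrays, are given in the closing section. Replicate numbers are shared across groups, and deviations of same-numbered arrays correlated at 0.00712 to 0.099, so the numbers were not taken to pair the arrays.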

Additional observations from a re-analysis of the deposited data

How the results depend on the processing

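The rise of Stat3 in GCSF arrays against control passed in all 18 alternatives (0.57 to 0.66). The rise of Stat2 there passed in 13 of 18. It was 0.38 and did not pass with the control block median as a covariate, and it was 0.38 to 0.42 with 1 array left out. Between LIF/PD and GCSF arrays Stat2 did not pass with only these groups in the fit or without an intensity trend (-0.35 in both), with the covariate (-0.32) or with 1 array left out (-0.41 to -0.30), and Stat3 did not pass without a trend (-0.37), with the covariate (-0.35) or in 3 of 6 fits with 1 array left out (-0.41 to -0.33). No other STAT difference passed in any alternative. Signs turned only for differences near 0. In GCSF against control, Stat6 was -0.0206 with quantile normalization and -0.0246 to 0.0296 with 1 array left out, Stat5a -0.0726 to 0.0194 and Stat5b -0.0388 to 0.129. In LIF/PD against control, with 1 array left out, Stat2 was -0.00781 to 0.0991, Stat5a -0.113 to 0.0237 and Stat5b -0.119 to 0.0485. In LIF/PD against GCSF, Stat4 was 0.0149 with the covariate, and Stat5a was 0.0068 with quantile normalization and -0.0861 to 0.0503 with 1 array left out.

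The features called in GCSF against control, 198, were 125 without an intensity trend, 99 with the covariate and 88 to 164 with 1 array left out. The 11 in LIF/PD against control were 1 without a trend and 1 to 7 with 1 array left out. The 143 in LIF/PD against GCSF were 82 with only these groups in the fit, 71 without a trend, 26 with the covariate and 30 to 91 with 1 array left out. The cause was not tested, and a left-out array or a covariate also leaves fewer degrees of freedom. With the replicate number as a block, 195, 9 and 165 features were called in these comparisons, and no call of a STAT gene changed.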

Other observations

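Among the list genes that lay below the filter and were not tested, 3 chosen after their values were seen differed in ways a reader may want to look at again. The interferon gene Ifit2 differed from control by 0.39 ± 0.08 log2 in LIF/PD arrays and by 0.40 ± 0.08 in GCSF arrays. Ifit3b differed from control by 0.12 ± 0.14 in LIF/PD arrays and 0.52 ± 0.14 in GCSF arrays. Il18r1, which the STAT4 list holds, differed from control by 0.15 ± 0.10 in LIF/PD arrays and by 0.47 ± 0.10 in GCSF arrays.

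The letters of the interferon-stimulated response element, found in the promoters of Stat2 and Stat4, were also present in 12 of the 23 listed interferon genes that have a promoter in the RefSeq table (52.2%), against 3.99% of all 27025 genes there. Of the 4 interferon genes called in GCSF against control, Ifit1 held them and Irf9 and Irf1 did not, and no promoter was available for Usp18.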
